A study of Mus musculus with 19 samples.

Results

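The immunoproteasome and the machinery that loads peptides onto MHC class I molecules were examined through 10 genes, *Psmb8*, *Psmb9*, *Psmb10*, *Psme1*, *Psme2*, *Tap1*, *Tap2*, *Tapbp*, *Tapbpl* and *Nlrc5*, which were selected by their gene names in the GENCODE M21 annotation from the 41128 rows of the count table. All 10 were among the 16841 genes that passed the filter on low counts. RNA was sequenced in 19 libraries from 3 brain regions of C57BL/6 mice at 3 months of age, which were either SCA17 knock-in (KI) mice or wild-type (WT) mice of matched age. There were 3 WT and 4 KI libraries of the cerebellum (CB), and 3 of each genotype for both the striatum (STR) and the prefrontal cortex (PFC). SCA17 is an ataxia caused by a polyglutamine expansion in TBP, the TATA box-binding protein, and the KI mice carry a *Tbp* allele with the expanded tract in the germline, obtained by crossing floxed mice to the EIIa-Cre line and then to WT mice. The mice received no treatment, and both sexes were used in the study. The comparison of genotypes in each region addresses which genes change with mutant TBP, and the comparison of regions addresses how that change differs between them.

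Proteasomes degrade proteins to peptides in a barrel-shaped core whose catalytic sites are carried by the β5, β1 and β2 subunits, encoded by *Psmb5*, *Psmb6* and *Psmb7*. Under interferon these subunits are replaced in newly assembled particles by the inducible subunits encoded by *Psmb8*, *Psmb9* and *Psmb10*, which yields the immunoproteasome, and the PA28 ring encoded by *Psme1* and *Psme2* caps the core and speeds the release of peptides. TAP1 and TAP2 form the transporter that carries peptides into the endoplasmic reticulum, tapasin (*Tapbp*) and its relative TAPBPR (*Tapbpl*) edit the peptides held by class I molecules, and NLRC5 is the transactivator of class I genes and of several genes of this pathway. In healthy brain these genes are mostly weakly expressed, and microglia and endothelial cells are the best-known sources.

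The 19 libraries held between 10639110 and 17431284 counts each (median 15082703), and levels are given as CPM, the counts scaled to a common depth by the TMM method. Summed markers of each region stood apart in their own region, with 4000 to 5500 CPM of cerebellar markers in the cerebellum against 203 to 545 elsewhere, 2950 to 5930 CPM of striatal markers in the striatum against 85.8 to 638 elsewhere, and 1190 to 1920 CPM of cortical markers in the prefrontal cortex against 15.7 to 584 elsewhere. *Tbp* itself stood at 52.5, 60.9 and 62.0 CPM in WT and 48.5, 52.2, 54.3 and 56.6 CPM in KI cerebella, at 39.5, 44.0 and 49.6 CPM in WT and 38.1, 42.0 and 42.3 CPM in KI striata, and at 33.4, 36.6 and 42.1 CPM in WT and 32.0, 33.2 and 35.9 CPM in KI prefrontal cortices. The groups overlapped in each region (log2 differences of -0.14, -0.12 and -0.15, none called), and since the counts do not separate the expanded allele, these values do not check the genotype labels. Libraries are whole tissue, so that fewer cells of a type and less RNA per cell cannot be told apart.

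A stretch of chromosome 17 within the major histocompatibility complex holds 5 of the 10 genes. In GRCm38 coordinates *Psmb9* lay at chr17:34181987-34187764 on the minus strand, followed on the plus strand by *Tap1* at chr17:34187553-34197225, *Psmb8* at chr17:34197721-34201454 and *Tap2* at chr17:34203527-34216321, so that these 4 genes fit in 34.3 kb, and *Tapbp* lay at chr17:33915899-33929292. *Tbp* is on the same chromosome, 18.39 to 18.68 Mb away from them. *Psme1* (chr14:55578123-55581529) and *Psme2* (chr14:55587441-55591113) are neighbours on chromosome 14, *Psmb10* (chr8:105935735-105938444) and *Nlrc5* (chr8:94434356-94527272) are on chromosome 8, and *Tapbpl* (chr6:125223933-125231860) is on chromosome 6.

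RefSeq promoter windows of 250 bases before to 50 bases after the start (GRCm38.p6) were found for 7 of the 10 genes, in 8 windows, and were searched on both strands for 3 motifs. The motifs were the core of the interferon-stimulated response element (GAAANNGAAA), which binds the complex that contains IRF9, the gamma-activated site (TTCNNNGAA), a second interferon-responsive element, and the Y box (CTGATTGG), an inverted CCAAT element that NF-Y binds in MHC promoters. The first was in 3.44% of all 32851 windows, the second in 8.3% and the third in 4.1%. RefSeq starts differ from the GENCODE gene bounds given above, which take in the earliest annotated transcript, so that a stretch before a RefSeq start can lie within those bounds. Of the 8 windows 1, that of *Psme1*, matched the first motif. The stretches with a match to any of the 3 motifs are shown, with the motif in capitals and each given 5′ to 3′ on the plus strand. They are the 225 bases between the RefSeq starts of *Psmb9* and *Tap1*, which are transcribed away from each other (chr17:34187331-34187555), the 200 bases before the RefSeq start of *Psmb8* (chr17:34197995-34198194) and the stretch from 100 bases before to 29 bases after the first RefSeq base of *Psme1* (chr14:55578394-55578523).
*Psmb9* and *Tap1*: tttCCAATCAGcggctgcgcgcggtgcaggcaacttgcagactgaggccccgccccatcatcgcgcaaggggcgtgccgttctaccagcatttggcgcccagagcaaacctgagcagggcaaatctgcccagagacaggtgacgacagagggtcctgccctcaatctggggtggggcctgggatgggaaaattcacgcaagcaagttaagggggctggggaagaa
*Psmb8*: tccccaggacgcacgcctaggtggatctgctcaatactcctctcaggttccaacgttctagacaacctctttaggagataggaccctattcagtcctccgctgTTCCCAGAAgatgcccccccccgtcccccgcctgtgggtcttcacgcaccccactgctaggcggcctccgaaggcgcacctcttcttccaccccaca
*Psme1*: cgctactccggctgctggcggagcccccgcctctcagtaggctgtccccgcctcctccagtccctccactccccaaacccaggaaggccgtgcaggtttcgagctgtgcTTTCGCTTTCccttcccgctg

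The Y box between *Psmb9* and *Tap1* began 11 bases before the *Psmb9* start when read on that gene's strand, and the same bases began 222 bases before the *Tap1* start. The gamma-activated site of *Psmb8* began 97 bases before its start, and the interferon-stimulated element of *Psme1* began 9 bases after its first base, in reverse orientation. None of the 3 motifs was in the windows of *Psmb10*, *Psme2* or *Tapbp*, which says only that these letters are not in those 300 bases.

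In WT brain the 10 genes spanned a wide range of levels. Per kilobase of exon, averaged over the 3 regions, *Psme2* (19.4 CPM per kb), *Psmb10* (18.8), *Psme1* (16.0) and *Tapbp* (14.0) formed the upper part, followed by *Tapbpl* (5.48) and *Tap2* (2.33). *Psmb8* (0.924 CPM per kb), *Tap1* (0.660) and *Psmb9* (0.550) were lower, and *Nlrc5* was lowest at 0.05 CPM per kb. The upper 4 were not separated from each other, since the means of the 3 regions ranged from 17.2 to 21.1 CPM per kb for *Psme2*, 10.6 to 34.0 for *Psmb10*, 11.9 to 19.3 for *Psme1* and 13.0 to 15.2 for *Tapbp*. Region means also overlapped among *Psmb8* (0.583 to 1.14 CPM per kb), *Tap1* (0.563 to 0.768) and *Psmb9* (0.376 to 0.704), while *Tapbpl* (4.08 to 6.89), *Tap2* (2.32 to 2.34) and *Nlrc5* (0.033 to 0.0665) each stood apart. Exon lengths are unions over all annotated isoforms, which understates the level of a gene whose main transcript is short.

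Regional differences among WT mice were called for 3 of the 10 genes between cerebellum and striatum (56.5% of all tested genes called), for 4 between cerebellum and prefrontal cortex (52.0%) and for 2 between striatum and prefrontal cortex (30.5%), with an adjusted p under 0.05 in edgeR's quasi-likelihood test. *Psmb10* set the largest of these. Its 3 WT libraries held 19.4 to 21.0 CPM in the cerebellum and 16.1 to 21.9 CPM in the striatum but 52.0 to 62.0 CPM in the prefrontal cortex, which are log2 differences of -1.51 for the cerebellum and -1.68 for the striatum against the prefrontal cortex. *Psmb8* was lower in the cerebellum than in the striatum (-0.83) and the prefrontal cortex (-0.96), and *Psme1* likewise (-0.50 and -0.70), whereas *Tapbpl* was lowest in the striatum, where it stood at -0.76 against the prefrontal cortex and the cerebellum was higher by 0.43. *Psmb9* was lower in the cerebellum than in the prefrontal cortex (-0.90). For *Psme2*, *Tap1*, *Tap2*, *Tapbp* and *Nlrc5* no pair of WT regions differed past the threshold.

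All 10 genes had higher fitted levels in KI than in WT mice in each of the 3 regions, whereas 51.5%, 48.5% and 50.4% of the tested genes were higher in the cerebellum, striatum and prefrontal cortex. Their median log2 fold change was 0.57, 0.55 and 0.21 in these regions, against a median of 0.01, -0.01 and 0.00 over all tested genes. The 10 genes were chosen with earlier results of these data known. These values and the counts below therefore describe the list and do not test it. *Nlrc5* passed the filter on low counts through its KI libraries, which favours a higher KI value, and without it the medians were 0.48, 0.50 and 0.21. Over the 3 regions, *Psmb8*, *Psmb9* and *Tap1* differed 1.67-fold to 2.47-fold, and the other 6 genes differed 1.03-fold to 1.59-fold.

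Gene by gene, few of these differences passed the adjusted threshold within a single region. In the cerebellum 1 of the 10 genes, *Psmb8*, was called higher in KI mice (0.517% of all tested genes), while 9 had an unadjusted p under 0.05 (4.86%) and 8 had every KI library above every WT library (5.82%). In the striatum edgeR called 0 of the 10 (0.392%), 9 had an unadjusted p under 0.05 (3.37%) and all 10 had non-overlapping groups (5.65%). In the prefrontal cortex edgeR called 0 of the 10 (0.0891%), 4 had an unadjusted p under 0.05 (2.53%) and 2, *Tap1* and *Nlrc5*, had non-overlapping groups (4.38%). DESeq2 on the same counts called 4 of the 10 for the cerebellum, 4 for the striatum and 0 for the prefrontal cortex. Striatum and prefrontal cortex libraries with the same genotype and number deviated together, and a limma voom fit that treated each such pair as 1 animal called 0, 2 and 0 in the 3 regions. With the KI effect averaged over the 3 regions, 6 of the 10 were called by edgeR (0.837%) and all 10 had an unadjusted p under 0.05 (5.94%), while DESeq2 called all 10 and the limma voom fit 5. Without *Nlrc5*, 8 of 9 genes in the cerebellum, 9 of 9 in the striatum and 3 of 9 in the prefrontal cortex had an unadjusted p under 0.05, and 8, 9 and 1 of 9 had non-overlapping groups. The 6 called in the mean were *Psmb8*, *Psmb9*, *Psmb10*, *Psme1*, *Tap1* and *Tapbpl*.

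**Figure D1:**
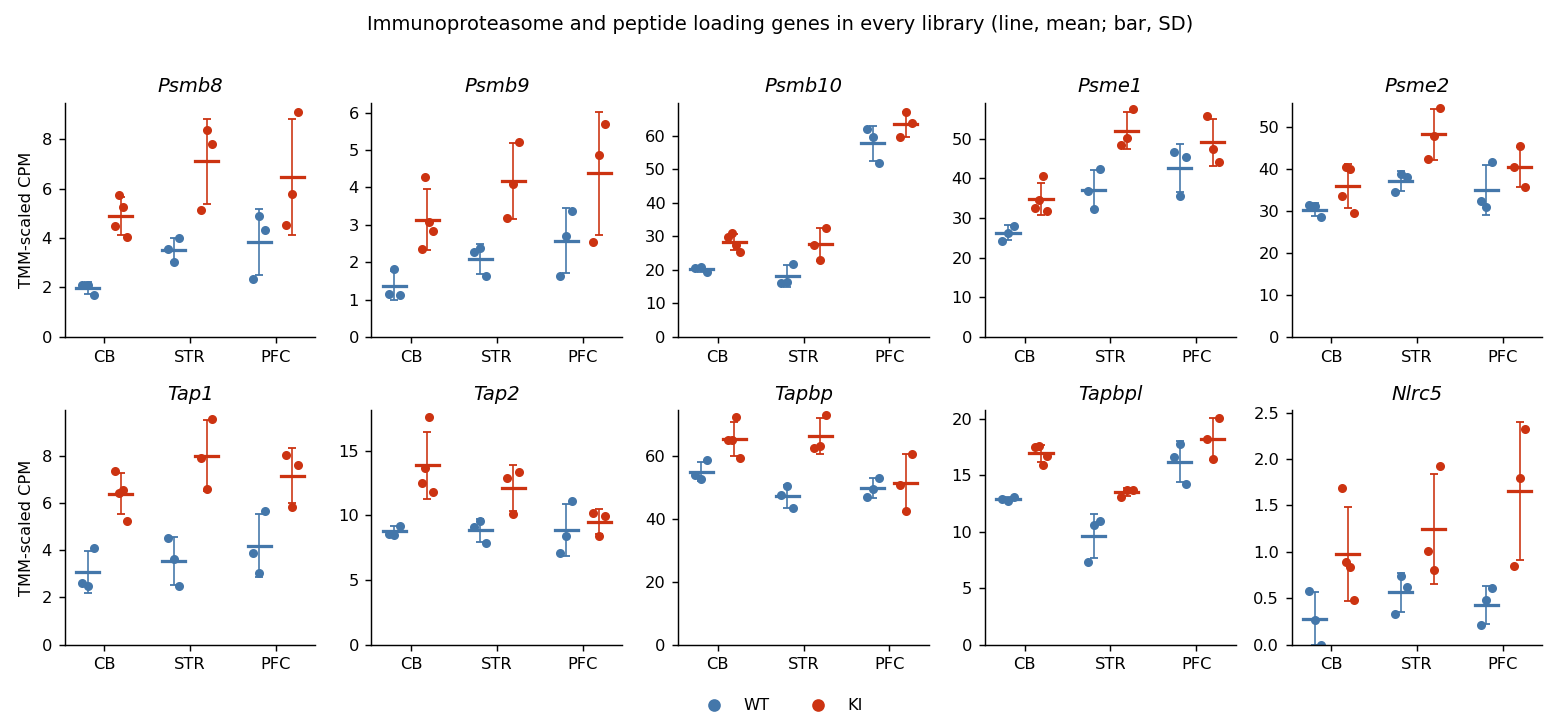
TMM-scaled CPM (y axis, from 0) of the 10 genes in each of the 19 libraries, with WT in blue and KI in red for CB (cerebellum), STR (striatum) and PFC (prefrontal cortex); horizontal lines are group means and bars are SD. In the striatum every KI library lies above every WT library for all 10 genes, and in the prefrontal cortex this holds for Tap1 and Nlrc5.

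Microglial markers were higher as well in the KI cerebellum, 12 of 12 with 7 called, with a median log2 fold change of 0.73 and a summed level of 161 to 164 CPM in WT and 242 to 319 CPM in KI mice. *Ctss* (1.26), *Aif1* (1.33) and *Itgam* (1.1) had the highest values of those called. In the striatum 7 of 12 were higher and 1, *Ctss* (0.75), was called, with sums of 716 to 799 CPM in WT and 788 to 877 CPM in KI mice, and for the prefrontal cortex 4 of 12 were higher and none was called, with sums of 665 to 691 and 611 to 767 CPM. The summed microglial level was apart between genotypes in the cerebellum and overlapped in the striatum and the prefrontal cortex. None of the 12 markers was at 0 in any group. Endothelial markers were called in no region, and their sums overlapped in each, at 163 to 188 CPM in KI and 164 to 188 CPM in WT cerebella. The part of these cells in the differences of the 10 genes was not tested.

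*Psmb8*, which encodes the chymotrypsin-like β5i subunit, rose in the KI cerebellum. The 3 WT cerebella held 1.70, 2.10 and 2.12 CPM (21 to 33 counts) and the 4 KI cerebella 4.05, 4.50, 5.27 and 5.76 CPM (67 to 104 counts). The lowest KI cerebellum was therefore well above the highest WT cerebellum. The log2 fold change was 1.30 ± 0.288 (SE), a 2.47-fold difference, with an adjusted p of 0.0395 by the quasi-likelihood test of edgeR (Benjamini-Hochberg). That call was close to the threshold, since 10 of the 19 fits with 1 library left out lost it. It was lost without any 1 of the 3 WT cerebella, of KI cerebella 1, 2 or 3, of KI prefrontal cortex 2, of KI striatum 3 or of WT striatum 1 or 2, and the adjusted p ranged from 0.0191 to 0.207 while the log2 fold change stayed between 1.21 and 1.38. The limma voom fit with paired animals gave an adjusted p of 0.0752.

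In the striatum *Psmb8* stood at 3.05, 3.54 and 4.02 CPM in WT and at 5.14, 7.80 and 8.36 CPM in KI mice. The groups did not overlap, and the log2 fold change was 1.00 ± 0.291 (edgeR adjusted p = 0.204). WT prefrontal cortices held 2.33, 4.31 and 4.89 CPM and KI prefrontal cortices 4.54, 5.77 and 9.10 CPM. Here 1 KI library fell within the WT range, and the log2 fold change was 0.74 ± 0.290 (edgeR adjusted p = 0.745).

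*Psmb9*, encoding the β1i subunit, followed the same order at a lower level. WT cerebella held 1.13, 1.16 and 1.83 CPM and KI cerebella 2.36, 2.84, 3.08 and 4.27 CPM, and in the striatum 1.62, 2.27 and 2.38 CPM in WT compared with 3.18, 4.10 and 5.22 CPM in KI mice. Neither pair of groups overlapped. KI prefrontal cortices (2.55, 4.87 and 5.71 CPM) overlapped with WT prefrontal cortices (1.64, 2.71 and 3.37 CPM). Log2 fold changes were 1.18 ± 0.338, 0.99 ± 0.345 and 0.75 ± 0.341 for cerebellum, striatum and prefrontal cortex, and edgeR's adjusted p was 0.142, 0.359 and 0.828. *Psmb9* and *Tap1* share 212 exon bases on opposite strands, and reads from these bases cannot be assigned to one of them without strand.

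*Psmb10* encodes the trypsin-like β2i subunit and had the highest level per length of the 3 inducible catalytic subunits. KI cerebella had 25.3, 27.3, 29.7 and 30.9 CPM, above the WT cerebella at 19.4, 20.7 and 21.0 CPM. KI striata had 22.9, 27.4 and 32.5 CPM, above the WT striata at 16.1, 16.3 and 21.9 CPM. The prefrontal cortex had the highest WT level of the 3 regions, and there KI (59.6, 63.7 and 67.1 CPM) and WT (52.0, 59.6 and 62.0 CPM) libraries overlapped. Log2 fold changes were 0.48 ± 0.128, 0.61 ± 0.137 and 0.13 ± 0.132 in the 3 regions in that order, and edgeR's adjusted p was 0.113, 0.0542 and 0.957.

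The constitutive subunits that these 3 replace carry the catalytic sites of the standard proteasome. None of *Psmb5*, *Psmb6* and *Psmb7* was called in any region or in the mean of the regions. *Psmb6* differed by 0.03, 0.01 and 0.03 on the log2 scale in cerebellum, striatum and prefrontal cortex and *Psmb7* by 0.08, -0.04 and 0.04. *Psmb5* stood at 0.11, -0.39 and -0.43 in the same regions, and its KI prefrontal cortices (45.2 to 62.0 CPM) were all below the WT ones (65.5 to 88.8 CPM) with an edgeR adjusted p of 0.791.

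Expressed as a ratio within each library, each inducible subunit had a higher mean level relative to its partner in KI mice. The ratio of *Psmb8* to *Psmb5* per exon length was 0.945% ± 0.269 in the 3 WT (SD) and 2.10% ± 0.309 in the 4 KI cerebella, and no KI library (1.84 to 2.49%) reached down to the WT range (0.763 to 1.25%). In striata it went from 1.33% ± 0.141 to 3.51% ± 0.725, and in prefrontal cortices from 1.40% ± 0.542 to 3.07% ± 0.717 (n = 3 each), also without overlap. With the lower values of *Psmb5* there, the ratio in these regions differed by more (1.38 and 1.19 on the log2 scale) than *Psmb8* itself. The ratio of *Psmb9* to *Psmb6* was 0.307% ± 0.0668 in WT and 0.691% ± 0.152 in KI cerebella and 0.458% ± 0.0930 and 0.903% ± 0.178 in striata, without overlap, and 0.646% ± 0.220 and 1.09% ± 0.450 in the prefrontal cortex, with overlap. *Psmb10* was far closer to its partner, at 37.6% ± 2.09 of *Psmb7* in WT and 49.4% ± 0.691 in KI cerebella and at 35.4% ± 5.54 and 55.4% ± 9.74 in striata. WT prefrontal cortices had *Psmb10* at the level of *Psmb7* (103% ± 4.42), and the KI value was 110% ± 6.05, with overlapping groups. No test was run on these ratios.

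**Figure D2:**
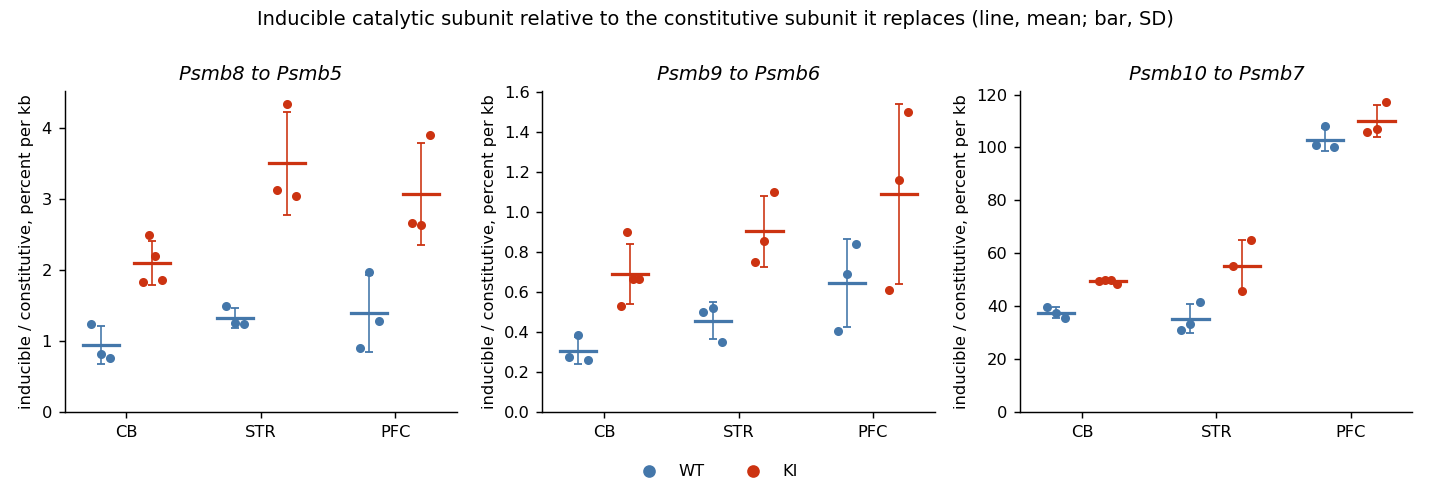
Level of each inducible catalytic subunit as a percent of the constitutive subunit it replaces, both per kilobase of exon (y axis, from 0), in each WT (blue) and KI (red) library of CB (cerebellum), STR (striatum) and PFC (prefrontal cortex); lines are group means and bars are SD. The Psmb8 to Psmb5 ratio is higher in every KI than in every WT library of each region, and the Psmb10 to Psmb7 ratio is near 100% in the prefrontal cortex of both genotypes.

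The PA28 genes had smaller differences, and edgeR called none in a single region. DESeq2 called *Psme1* in the striatum (adjusted p = 0.0458). *Psme1* (PA28α) had 31.7 to 40.5 CPM in the 4 KI cerebella compared with 24.3 to 28.1 CPM in the 3 WT cerebella, and 48.5, 50.2 and 57.4 CPM in KI compared with 32.3, 36.9 and 42.3 CPM in WT striata. Both pairs of groups were apart, and the log2 fold changes were 0.41 ± 0.126 and 0.49 ± 0.133 (edgeR adjusted p = 0.188 and 0.159). For the prefrontal cortex the difference was 0.21 ± 0.132 with overlapping groups. *Psme2* (PA28β) gave 0.24 ± 0.132, 0.38 ± 0.140 and 0.21 ± 0.141 in cerebellum, striatum and prefrontal cortex, and its groups were apart in the striatum, at 34.5 to 38.9 CPM in WT and 42.5 to 54.5 CPM in KI mice. *Psme2* has a near-identical retrocopy, *Psme2b*, which held at most 11 counts in any library. *Psme3*, which encodes the nuclear PA28γ and is not part of the interferon-induced ring, differed by 0.07, -0.12 and 0.03.

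*Tap1* had the largest differences of the transporter genes. WT cerebella held 2.49, 2.63 and 4.12 CPM and KI cerebella 5.26, 6.43, 6.55 and 7.37 CPM, WT striata 2.47, 3.64 and 4.54 CPM and KI striata 6.60, 7.91 and 9.58 CPM, and WT prefrontal cortices 3.05, 3.90 and 5.66 CPM and KI prefrontal cortices 5.84, 7.64 and 8.06 CPM. Together with *Nlrc5* it was separated in the prefrontal cortex, and it was the only one of the 10 genes separated in all 3 regions. The log2 fold changes of 1.06 ± 0.260, 1.17 ± 0.271 and 0.77 ± 0.269 did not pass in edgeR's quasi-likelihood test (adjusted p = 0.0693, 0.0632 and 0.637). DESeq2 called it in the cerebellum (adjusted p = 0.00710) and the striatum (adjusted p = 0.00477), and the limma voom fit with paired animals called it in the striatum (adjusted p = 0.0459).

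*Tap2*, the other chain of the transporter, had a higher WT level per length and differed less. Its KI cerebella (11.8, 12.5, 13.7 and 17.6 CPM) were above the WT cerebella (8.52, 8.55 and 9.22 CPM), as were its KI striata (10.1, 12.9 and 13.4 CPM) above the WT striata (7.88, 9.08 and 9.59 CPM). KI (8.39 to 10.2 CPM) and WT (7.12 to 11.1 CPM) prefrontal cortices were intermixed. Log2 fold changes were 0.67 ± 0.170, 0.45 ± 0.181 and 0.10 ± 0.182 (edgeR adjusted p = 0.0836, 0.468 and 0.994), and the value in the prefrontal cortex turned to -0.03 without WT library 1.

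Of the peptide editors, *Tapbp* encodes tapasin, which holds class I molecules at the transporter. WT striata held 43.4, 47.7 and 50.5 CPM and KI striata 62.7, 63.3 and 73.0 CPM, a log2 fold change of 0.49 ± 0.112 that just missed the threshold (edgeR adjusted p = 0.0602) and passed it in the limma voom fit with paired animals (adjusted p = 0.0423). In the cerebellum the difference was 0.25 ± 0.105, with 52.6 to 58.6 CPM in WT and 59.3 to 72.3 CPM in KI mice, so that the groups were only narrowly apart. It was 0.04 ± 0.113 in the prefrontal cortex and turned to -0.09 without KI library 3. *Tapbp* shares 149 exon bases with *Zbtb22* on the same strand and 904 with *Gm19412* on the opposite strand. Also on opposite strands, *Psmb8* shares 498 exon bases with *Gm20496* and *Tap2* shares 533 with *Gm15821*. In any library *Gm19412* held at most 3 counts, *Gm20496* at most 1 and *Gm15821* at most 4, but *Zbtb22* held up to 430. *Psme1* shares 14 exon bases on the opposite strand with *Emc9*, which held up to 929 counts. *Tapbpl* showed little spread in the cerebellum, at 12.7, 12.9 and 13.1 CPM in WT and 15.9, 16.7, 17.5 and 17.6 CPM in KI mice, and in the striatum it had 7.35, 10.6 and 10.9 CPM in WT and 13.1, 13.7 and 13.7 CPM in KI mice. Its log2 fold changes were 0.39 ± 0.128, 0.50 ± 0.139 and 0.17 ± 0.135 (edgeR adjusted p = 0.224, 0.175 and 0.930), with overlap in the prefrontal cortex.

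*Nlrc5* was at the edge of detection, with 0 to 10 counts in the 9 WT libraries and 8 to 30 counts in the 10 KI libraries. Only 1 WT library but 9 KI libraries reached the minimum of 10 counts at the median depth, so the gene passed the filter through its KI libraries. KI levels were 0.484 to 1.69 CPM in cerebella, 0.806 to 1.92 CPM in striata and 0.848 to 2.32 CPM in prefrontal cortices, and WT levels were 0 to 0.578, 0.334 to 0.743 and 0.205 to 0.607 CPM. The groups overlapped in the cerebellum and were apart in the other regions. The log2 fold changes were the least precise of the 10 and, in the cerebellum and prefrontal cortex, the largest, at 1.71 ± 0.672, 1.14 ± 0.653 and 1.90 ± 0.665 (edgeR adjusted p = 0.369, 0.706 and 0.637).

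Averaging the KI effect over the regions gave the most precise estimates. *Tap1* (1.00 ± 0.154, edgeR adjusted p = 0.00143), *Psmb8* (1.02 ± 0.167, edgeR adjusted p = 0.00266) and *Psmb9* (0.97 ± 0.197, edgeR adjusted p = 0.0163) rose about 2-fold. *Psmb10* (0.41 ± 0.0764), *Psme1* (0.37 ± 0.0753) and *Tapbpl* (0.35 ± 0.0773) rose 1.32-fold, 1.29-fold and 1.28-fold (edgeR adjusted p = 0.00915, 0.0180 and 0.0277). *Nlrc5* (1.59 ± 0.383), *Tapbp* (0.26 ± 0.0635), *Tap2* (0.41 ± 0.102) and *Psme2* (0.28 ± 0.0795) did not pass (edgeR adjusted p = 0.0509, 0.0536, 0.0615 and 0.109). The 5 genes other than *Tapbpl* were called in each of the 19 fits with 1 library left out, and *Tapbpl* in 12. *Tapbpl* was lost without any 1 of the WT cerebella, KI cerebellum 2, KI or WT prefrontal cortex 3 or KI striatum 3. The edgeR adjusted p was up to 0.0639 in these fits. The call was also lost without the filter on low counts (edgeR adjusted p = 0.0602) and with a replicate block within regions (edgeR adjusted p = 0.101). In the limma voom fit with paired animals 5 of the 6 calls were kept and *Psmb9* was lost (adjusted p = 0.0538).

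**Figure D3:**
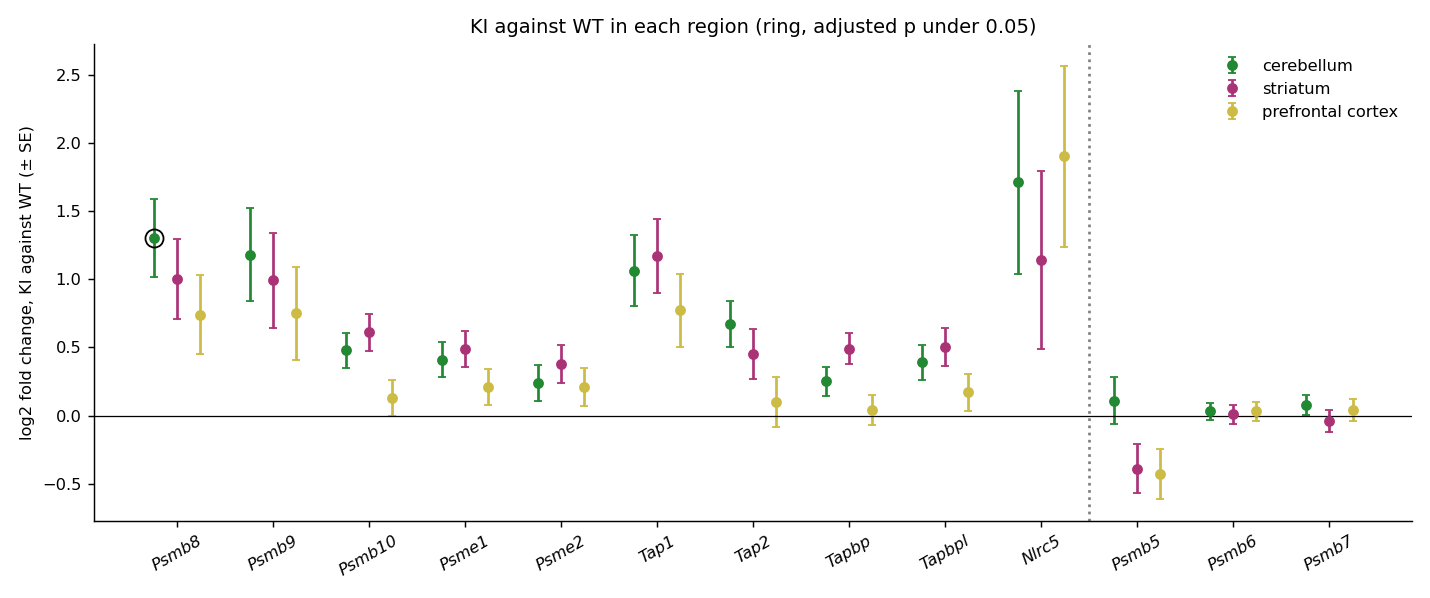
Log2 fold change of KI against WT with its standard error (y axis) for the 10 genes and, right of the dotted line, the 3 constitutive catalytic subunits, in the cerebellum (green), striatum (purple) and prefrontal cortex (yellow); a ring marks an adjusted p under 0.05. All values of the 10 genes are above 0, of these 10 all but Nlrc5 have their lowest value in the prefrontal cortex, and Psmb8 in the cerebellum carries the single ring.

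Differences in the KI effect between regions were not called for any of the 10 genes. EdgeR called 0 of the 10 between cerebellum and prefrontal cortex (0.0178% of all tested genes), 0 between cerebellum and striatum (0.0119%) and 0 between striatum and prefrontal cortex (0.0% of all tested genes), and DESeq2 also called 0 of the 10 in each. At an unadjusted p under 0.05 there were *Tap2* between cerebellum and prefrontal cortex, none between cerebellum and striatum, and *Psmb10* and *Tapbp* between striatum and prefrontal cortex. The lowest edgeR adjusted p of the 10 genes was 0.758, 0.852 and 1.0 in these 3 comparisons. The smaller median in the prefrontal cortex was thus not shown to differ from the other regions gene by gene.

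Of the 11 other subunits of the 20S core, 18 subunits of the 19S regulatory particle and 8 other activators, inhibitors and assembly factors, none was called by edgeR in any region or in the mean. The median log2 fold change of the 20S core subunits was 0.07, 0.06 and 0.09 in cerebellum, striatum and prefrontal cortex, and the subunits lay between -0.04 and 0.18, with 10 of 11 above 0 in each region. For the 19S particle the medians were 0.04, 0.01 and 0.06, with a range of -0.15 to 0.14 over the regions, and 12, 10 and 18 of 18 were above 0. The third PA28 gene and the other activators and assembly factors had medians of -0.01, 0.03 and 0.02, with 4, 5 and 5 of 8 above 0.

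Of 12 genes for peptide trimming, chaperones of the endoplasmic reticulum and class I chains, the same 2 were called higher in cerebellum and striatum and none in prefrontal cortex, and the list medians were -0.03, 0.07 and 0.09. The 2 were *B2m*, the light chain of all class I molecules, at 63.0 to 83.6 CPM in WT and 139 to 174 CPM in KI cerebella and 73.4 to 86.7 CPM in WT and 184 to 306 CPM in KI striata (log2 fold changes 1.09 ± 0.211 and 1.59 ± 0.224, edgeR adjusted p = 0.0154 and 0.00164), and the heavy chain gene *H2-K1* (1.14 ± 0.251 and 1.29 ± 0.262, edgeR adjusted p = 0.0390 and 0.0313). Another heavy chain gene, *H2-D1*, stood at -0.53 in the cerebellum and 1.17 in the striatum without a call. Heavy chain genes share much sequence, and whether reads were split between them was not tested.

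Among regulators known to act on promoters of this pathway, *Irf9* was called higher in all 3 regions. It encodes the DNA-binding subunit of the complex that acts on interferon-stimulated response elements, and it differed by 2.33 ± 0.176, 2.03 ± 0.180 and 1.47 ± 0.179 in cerebellum, striatum and prefrontal cortex (edgeR adjusted p = 4.45e-06, 1.61e-05 and 0.00305). *Irf8*, a factor of microglia and other myeloid cells, was called in the cerebellum (1.26 ± 0.208) and *Stat2* in the striatum (0.52 ± 0.0987). Another 10 regulators, among them the RFX and NF-Y subunits that act with NLRC5 at MHC promoters, were called in no region and lay between -0.28 and 0.55.

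**Figure D4:**
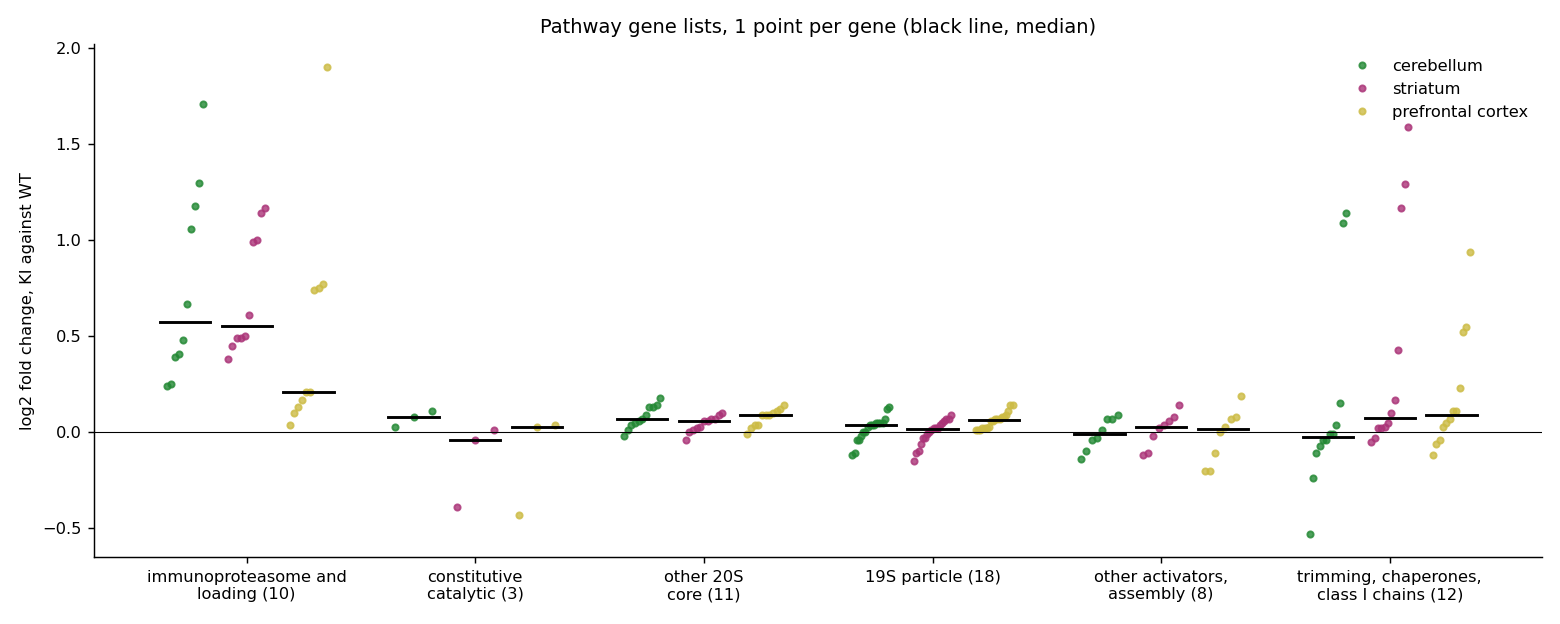
Log2 fold change of KI against WT (y axis) for every gene of 6 lists (x axis, number of genes in brackets) in the cerebellum (green), striatum (purple) and prefrontal cortex (yellow), with medians as black lines. The 20S and 19S proteasome subunits lie near 0, and the highest points of the last list are B2m and H2-K1.

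On chromosome 17 the surrounding genes were compared because 5 of the 10 genes and *Tbp* are on that chromosome. In the span from 200 kb before to 200 kb after these 5 genes, 34 other genes were tested. Only *H2-K1* among them was called in the cerebellum and the striatum, none was called in the prefrontal cortex, and *H2-K1* and *Rps28* were called in the mean of the regions. Their median log2 fold change was 0.05, -0.03 and -0.03 in cerebellum, striatum and prefrontal cortex. The lowest and highest of them were -0.98 and 1.14 in cerebellum, -0.99 and 1.29 in striatum and -0.67 and 0.94 in prefrontal cortex, and the highest was *H2-K1* in each. In the mean of the regions the block stood at 0.97 (*Psmb9*), 1.00 (*Tap1*), 1.02 (*Psmb8*) and 0.41 (*Tap2*).

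**Figure D5:**
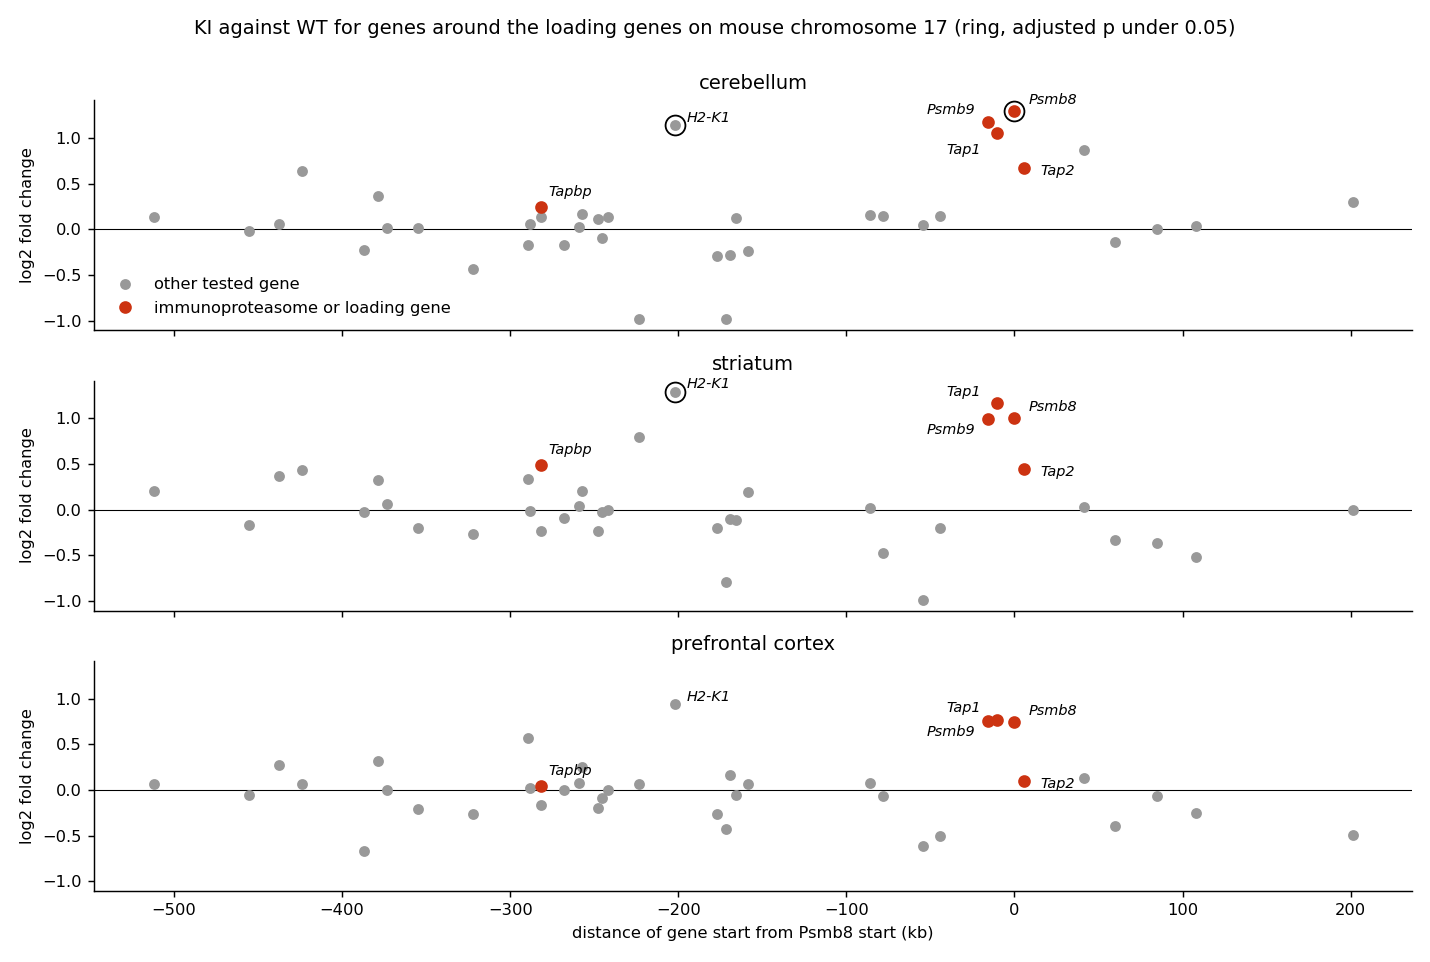
Log2 fold change of KI against WT (y axis) for the 5 genes on chromosome 17 (red) and 34 other tested genes within 200 kb of them (grey), by the distance of the gene start from that of Psmb8 in kb (x axis), with 1 panel per region; a ring marks an adjusted p under 0.05. Psmb9, Tap1 and Psmb8 stand above the grey points near them in each region, and H2-K1 is the only grey point with a ring.

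Across the 19 libraries, with the mean of each region removed, the genes whose log2 level was most like that of *Psmb8* were *Lgals9* (r = 0.93) and then *Eif2ak2*, *Igtp*, *Oasl2* and *Sp100* (r = 0.92 each), out of 16732 named genes. *Psmb9* was closest among the pathway genes (r = 0.91, rank 7), followed by *Nlrc5* (r = 0.80, rank 72), and the other genes had r between 0.62 and 0.73 with ranks from 113 to 264. *Tap1*, which lies between *Psmb9* and *Psmb8* on the chromosome, had r = 0.72. These correlations include the difference between genotypes and describe these libraries. *Nlrc5* passed the filter through its KI libraries, which favours its likeness to a gene higher in KI mice.

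Of 12 lymphocyte markers 1, *Cd4*, passed the filter without a call. Their sum in the cerebellum was 1.03 to 1.29 CPM in WT and 0.616 to 2.49 CPM in KI mice, and in the striatum it was 120 to 154 CPM in WT and 78.2 to 113 CPM in KI mice. The highest count of a single marker was 2060 in WT and 1535 in KI striata, and only *Cd4* passed the filter. The striatal sum was therefore mostly *Cd4* and does not measure lymphocytes. The B cell marker *Ms4a1* was at 0 in all WT cerebella and all WT striata, and *Cd8a* was at 0 in all KI striata. Monocyte and border macrophage markers, of which 5 of 6 were tested and none called, summed to 6.55 to 7.86 CPM in WT and 7.01 to 16.5 CPM in KI cerebella and to 14.8 to 18.5 CPM in WT and 10.5 to 14.1 CPM in KI striata.

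Choroid plexus markers were higher in the KI cerebellum for 5 of 5 genes without a call, with sums of 8.65 to 1940 CPM in WT and 9.61 to 4880 CPM in KI mice. Striatal markers summed to 4900 to 5930 CPM in WT and 2950 to 4240 CPM in KI striata, which do not overlap. In the prefrontal cortex 5 of 5 striatal markers were higher in KI mice without a call (median 0.80). Their sums there were 160 to 351 CPM in WT and 99.0 to 638 CPM in KI mice. Of 7 astrocyte and 6 oligodendrocyte markers 0 were higher in KI prefrontal cortices (medians -0.24 and -0.26), without a call. Red blood cell markers were higher in KI striata for 4 of 4 genes without a call, with sums of 168 to 217 CPM in WT and 210 to 511 CPM in KI mice. Of 7 astrocyte markers 6 were higher in the KI cerebellum without a call (median of the 7, 0.15) and 1, *Aldoc*, fell by 0.62 on the log2 scale, and the sum was 7260 to 7480 CPM in WT and 5520 to 6870 CPM in KI mice. Neuronal markers (5) summed to 7240 to 7710 CPM in WT and 6370 to 7090 CPM in KI cerebella, and oligodendrocyte markers (6) to 6780 to 8010 and 5560 to 8240 CPM, with none called. The Purkinje cell gene *Pcp2* fell by 1.16 on the log2 scale in the KI cerebellum. Their part in the results above was not tested.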

How the data were processed

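Total RNA was extracted from the 3 regions, and libraries were prepared per the labels with the SMART-Seq v4 kit, which amplifies full-length cDNA without marking strand, and Nextera XT. The submitters' processing notes list bcl2fastq 2.17.1.14, STAR 2.5.2b, HTSeq, DESeq2 1.10.1 and GRCm38.p3, whereas the paper's methods name Cuffdiff; the annotation used for counting is not given in the sources used here. The authors deposited raw counts of reads per gene and the same counts divided by 1 size factor per library, and the second table was not used here.

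The raw counts were fitted with edgeR 4.0.16 under R 4.3.3. Rows were filtered by filterByExpr over the 6 groups, scaled by TMM and fitted by the quasi-likelihood method over all 19 libraries (13 residual degrees of freedom, common biological coefficient of variation 0.191), with Benjamini-Hochberg adjustment over all 16841 tested genes and a threshold of 0.05. Log2 levels used a prior count of 2. The step was tested on simulated data. GENCODE M21 entries were found for 40254 of 41128 rows, and exon lengths are unions over isoforms. Reads carry no molecular identifiers. The paper's methods give 3 to 4 mice per genotype, and the labels do not say whether libraries of different regions share mice. P-values measure only the spread between libraries. Replicates differed by more than sampling noise (chi-square per degree of freedom 4.84 to 28.7 over 21 pairs).

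The 10 genes, the lists and the tests were chosen with earlier results of these data known. All 10 genes and the called genes of each list are named, apart from items not reported here, with *Psme3*, the 5 genes most like *Psmb8* and the called marker genes with the highest values. Alternatives were DESeq2 1.42.0, DESeq2 size factors, no filter beyond 1 count, each region alone, replicate and animal blocks (limma 3.58.1), the *Xist* to Y-linked ratio as a covariate for sex, and each library left out. Same-numbered striatum and prefrontal cortex libraries of a genotype deviated together (r from 0.233 to 0.368 in 6 of 6 pairs), so they were also treated as pairs, by data and not by label, in fits chosen after seeing the data. Cerebellum libraries (2 of 12 pairs over 0.1) and same-numbered KI and WT libraries (2 of 9) did not.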

Additional observations from a re-analysis of the deposited data

How the results depend on the processing

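*Nlrc5*, *Psmb8*, *Psmb9* and *Tap1* had low counts, at most 145 per library, and the part of depth in their results was not tested. DESeq2 called 4 of the 10 genes in the cerebellum and 4 in the striatum, and all 10 in the mean of the regions. A replicate block by number within each region, although same-numbered KI and WT libraries did not deviate together, called 2 in the cerebellum and 1 in the striatum. The animal block called 0 in the cerebellum and 2 in the striatum, over all regions and, chosen after seeing the data, over striatum and prefrontal cortex alone, and in the latter 2 in WT cerebellum against prefrontal cortex. The covariate for sex called 2 in the striatum. In the mean it also called *Nlrc5* (edgeR adjusted p = 0.0017) and *Tapbp* (edgeR adjusted p = 0.0251), but not *Tap2* (0.0504) or *Psme2* (0.0913). With 1 library left out, 0 to 1 genes were called in the cerebellum, 0 to 1 in the striatum, 5 to 8 in the mean, 1 to 3 in WT cerebellum against striatum and 2 to 5 in WT cerebellum against prefrontal cortex. In the prefrontal cortex, with 1 library left out, *Tapbp* ranged from -0.09 (without KI library 3) to 0.15 and *Tap2* from -0.03 (without WT library 1) to 0.29, and no other KI difference of the 10 genes changed sign. The cause of these changes was not tested.

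Over all genes, DESeq2 called 336, 214, 52 and 440 in cerebellum, striatum, prefrontal cortex and mean, compared with 140, 98, 18 and 228. The striatum alone gave 46 and the prefrontal cortex alone 0. The animal blocks gave 155 and 151 in the striatum and 8 and 8 in the prefrontal cortex, and the replicate block 9 there. Differences between regions were called for 3 (cerebellum and prefrontal cortex), 2 (cerebellum and striatum) and 0 genes, and by DESeq2 for 32, 50 and 12. The replicate block gave 1 and 8 in the first and second, the animal block 1 and 1, the block chosen later 0, 1 and 1, and the sex covariate 1 in the second. With 1 library left out the counts were 73 to 155, 36 to 121, 5 to 19 and 165 to 255, and 1 to 5, 1 to 6 and 0 to 1 for the differences. The log2 differences in the ratios of paired subunits were the same without division by length and kept their sign with each library left out.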
